A study of Danio rerio with 6 samples.

Results

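Lymphocyte genes are described here in the proximal intestine of zebrafish with short bowel syndrome (SBS) and of sham-operated zebrafish. The set was defined by name as 10 genes of T cells, B cells and lymphoid development: lck, zap70, cd8a, cd4-1, cd79a, cd79b, ikzf1, ptprc, cd247 and tcf3a. Of these, 7 had a row in the deposited table of 12398 genes, and all 7 passed the minimum of 10 counts. The B cell genes cd79a and cd79b and the pan-leukocyte gene ptprc were not analysed here, so the values below are those of T cell genes and of a pair of transcription factors.

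All fish were adult wild-type males of the Ekk strain, and the tissue was the full thickness of the first intestinal segment (S1), taken 2 weeks after surgery. In SBS fish the middle intestine had been removed, the distal intestine tied off and the proximal end fixed to the body wall as an ostomy. In sham fish the abdomen was opened and the bowel was left alone. Per the study's methods, the samples sequenced were those with the highest RNA concentration in each group. The 3 sham libraries are distinct. Of the SBS columns, replicate 1 and replicate 2 hold identical counts in 12488 of 12488 rows, so they were counted as 1 library, and SBS has 2 libraries, replicate 1 and replicate 3.

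A T cell recognises its antigen through the T cell receptor, whose signalling chains include CD247 (the zeta chain). The co-receptors CD4 and CD8 bring the kinase Lck to the receptor. Lck phosphorylates the signalling chains, the kinase ZAP70 docks on them, and ZAP70 then phosphorylates adaptors such as Lat. CD79A and CD79B are the corresponding signalling chains of the B cell receptor, and the phosphatase CD45, encoded by ptprc, keeps Lck in a state that can be activated. Ikaros, encoded by ikzf1, and E2A, the mammalian product of the tcf3 gene, are transcription factors needed for lymphocyte development. In the intestine, T cells lie among the epithelial cells and in the tissue beneath them, and teleost fish have no lymph nodes or Peyer's patches.

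The SBS libraries held 20386486 and 38883223 reads on genes, against 38737964 to 47157424 in the sham libraries. Levels are given as CPM, the counts of a gene scaled to a common library size as edgeR gives them. The library size was adjusted by the trimmed mean of M-values (TMM), which sets most genes equal between libraries. The tissue label was checked on marker lists. The 17 tested intestinal epithelium markers summed to 11726 and 48992 CPM in SBS, against 112928 to 160466 CPM in sham. The abundant apoa1a, chia.1 and chia.2 made up much of these sums. For example, apoa1a had 2598 and 7957 CPM in SBS, against 13341 to 68828 CPM in sham. Of the 17 markers the fit placed 14 below 0 and 3 above, and chia.2 passed as lower and epcam as higher. Markers of other cells differed as well. The 15 tested exocrine pancreas markers summed to 2755 and 9463 CPM in SBS, against 15865, 1764 and 46258 CPM in sham. The fit placed 14 of them below 0, and 0 passed. Of 23 hepatocyte markers, 19 passed the test as higher in SBS. The 16 neutrophil markers summed to 6924 and 11912 CPM in SBS, against 299 to 2713 CPM in sham, and 2 of them passed as higher. Single genes carried these sums. Of them cpa5, also in the exocrine pancreas list, had 339 and 417 CPM in SBS, against 673, 78.6 and 2388 CPM in sham. Without mpx, mmp9 and cpa5, the other 13 summed to 3768 and 385 CPM in SBS, against 184 to 316 CPM in sham. The genes left out were chosen after their values were seen. Among 22 macrophage markers 4 passed as higher and 1 as lower, and 11 pan-leukocyte genes, of which 0 passed, had a median log2 fold change of 1.40. The part of these differences in the lymphocyte gene values was not tested. In such whole tissue, fewer cells of a type and less RNA per cell cannot be told apart.

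None of the 7 lymphocyte genes passed the test in either direction. Levels were on average lower in SBS for lck, cd247, cd8a, tcf3a, ikzf1 and zap70, and higher for cd4-1, the co-receptor of helper T cells. For lck and tcf3a both SBS libraries lay below every sham library, while the groups overlapped for the other 5. The groups did not overlap for 46.9% of all genes tested.

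Among the genes of the receptor and its co-receptors, the row named cd247 (ENSDARG00000077240, chromosome 9) had 1.44 and 3.74 CPM in SBS replicate 1 and replicate 3, against 3.204, 5.96 and 5.13 CPM in sham replicate 1, 2 and 3. SBS replicate 1 was the lowest library, and SBS replicate 3 lay inside the sham range. The means were 2.59 ± 1.63 CPM in SBS (SD, n = 2) and 4.76 ± 1.41 CPM in sham (SD, n = 3), a log2 fold change of -0.87 with a 95% interval of -2.22 to 0.48. The identity of this row is uncertain. It has a listed length of only 235 bases, and it carries the same Ensembl identifier and the description of a CD247-like antigen as a second row, cd247l. That second row had 0.850 and 0.698 CPM in SBS, against 0.961, 1.26 and 2.40 CPM in sham. Its SBS libraries lay below the sham libraries, and its log2 fold change of -0.99 did not pass (adjusted p = 0.320, quasi-likelihood test). Below, cd247 therefore names only the first of these rows, whichever transcript was counted, and that row is kept in the counts of members.

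The gene cd8a (ENSDARG00000044797, chromosome 21) encodes the alpha chain of CD8, the co-receptor of cytotoxic T cells. It had 3.27 and 8.42 CPM in SBS, against 5.27, 14.4 and 10.6 CPM in sham. SBS replicate 1 was again the lowest of the libraries and SBS replicate 3 fell between sham replicates. The libraries of each group spread widely, with means of 5.84 ± 3.64 CPM in SBS (SD, n = 2) and 10.1 ± 4.57 CPM in sham (SD, n = 3). The log2 fold change was -0.78, with a 95% interval of -2.24 to 0.68.

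The gene cd4-1 (ENSDARG00000070668, chromosome 16) encodes a CD4 molecule of helper T cells, and in zebrafish it is also known from some mononuclear phagocytes. It was the only member with a higher mean in SBS. Its levels were 7.71 and 10.6 CPM in SBS, against 6.09, 6.04 and 8.34 CPM in sham. SBS replicate 3 was the highest library, and SBS replicate 1 lay below sham replicate 3. The means of 9.18 ± 2.08 CPM in SBS (SD, n = 2) and 6.82 ± 1.31 CPM in sham (SD, n = 3) gave a log2 fold change of 0.43, with a 95% interval of -0.36 to 1.22. Without sham replicate 3, and likewise without SBS replicate 1, the remaining SBS values of cd4-1 lay above all remaining sham values, as did those of 28% and 34.5% of all genes.

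The kinase genes differed in how far their groups lay apart. The gene lck (ENSDARG00000102525, chromosome 17) encodes the Src family kinase that starts T cell receptor signalling, and it is a usual marker of zebrafish T cells. It had 8.04 and 13.7 CPM in SBS, against 15.2, 28.4 and 18.5 CPM in sham. Every SBS value was below every sham value, although SBS replicate 3 and sham replicate 1 differed little. The means were 10.9 ± 4.01 CPM in SBS (SD, n = 2) and 20.69 ± 6.88 CPM in sham (SD, n = 3), and the log2 fold change was -0.93 (standard error 0.40). Its 95% interval ran from -1.92 to 0.07 and included 0.

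The gene zap70 (ENSDARG00000015752, chromosome 8) encodes the kinase that acts directly after Lck and is used by T cells and natural killer cells. Its levels were 15.7 and 17.5 CPM in SBS, against 11.9, 27.7 and 19.7 CPM in sham. Both SBS values lay inside the sham range, and sham replicate 1 was the lowest library. The means were 16.6 ± 1.27 CPM in SBS (SD, n = 2) and 19.8 ± 7.89 CPM in sham (SD, n = 3). The log2 fold change of -0.26 had a 95% interval of -1.23 to 0.71, and it was 0.11 without sham replicate 2.

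Of the transcription factor genes, ikzf1 (ENSDARG00000013539, chromosome 13) is expressed in lymphoid cells and their progenitors. It had 14.2 and 9.35 CPM in SBS, against 9.79, 17.8 and 18.2 CPM in sham. SBS replicate 3 and sham replicate 1 were the lowest and nearly equal, and SBS replicate 1 was between the sham values. The means were 11.8 ± 3.46 CPM in SBS (SD, n = 2) and 15.3 ± 4.74 CPM in sham (SD, n = 3), a log2 fold change of -0.37 with a 95% interval of -1.32 to 0.58.

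The gene tcf3a (ENSDARG00000005915, chromosome 2) encodes an E protein of the E2A kind, which in mammals is needed for B cells and T cells and is also made by many other cells. Its row is classed as a retained intron transcript in the deposited annotation. It had 4.71 and 3.22 CPM in SBS, against 7.52, 6.77 and 5.79 CPM in sham. Both SBS values were below all sham values, and the sham libraries lay close together. The means were 3.96 ± 1.05 CPM in SBS (SD, n = 2) and 6.69 ± 0.865 CPM in sham (SD, n = 3). The log2 fold change was -0.76 (standard error 0.34), and its 95% interval of -1.60 to 0.09 included 0. The paralog tcf3b, no member of the set, had 29.9 and 30.1 CPM in SBS, against 26.4, 28.9 and 27.8 CPM in sham. Its SBS libraries lay above the sham libraries by a small margin, a log2 fold change of 0.11 (adjusted p = 0.766, quasi-likelihood test). How the reads of these paralogs were assigned is not given in the sources used here.

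**Figure D1:**
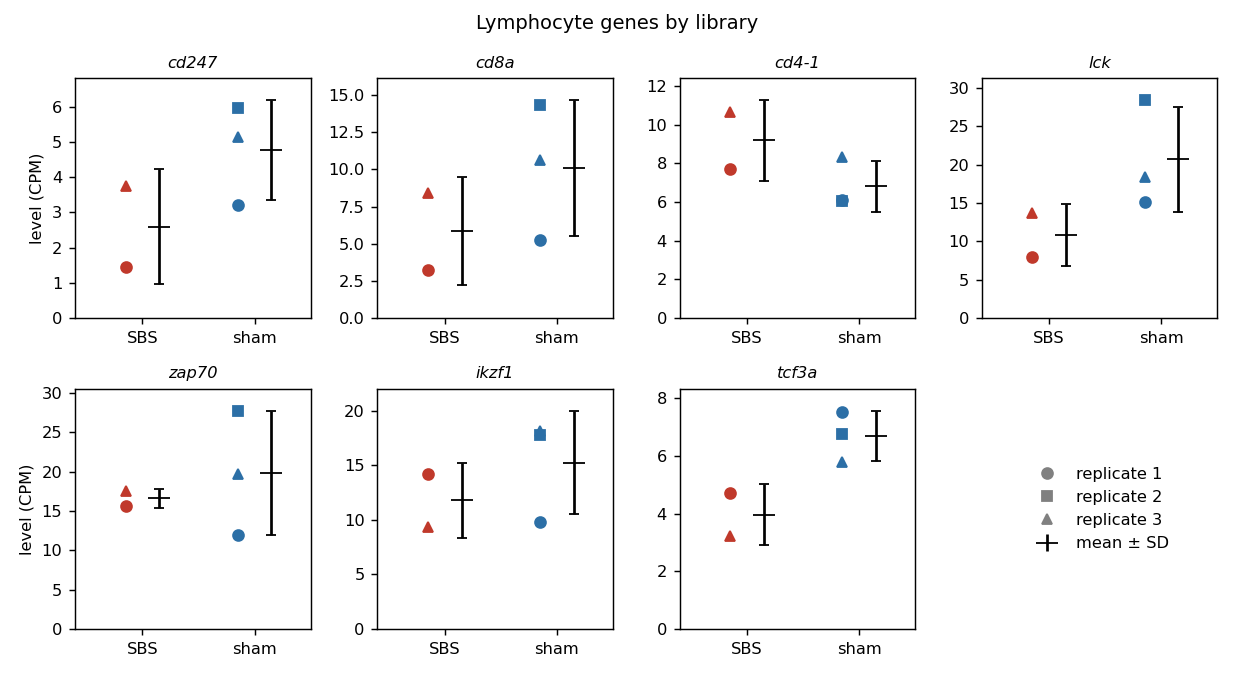
Level of each lymphocyte gene in CPM (vertical axes, starting at 0) in the 2 SBS libraries and the 3 sham libraries; symbols mark the replicate number and black bars the mean ± SD of each group. SBS lies wholly below sham for lck and tcf3a, and the groups overlap for cd247, cd8a, cd4-1, zap70 and ikzf1.

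The test asked whether these differences were larger than the spread between libraries. It was edgeR's quasi-likelihood test over all 12381 genes. To pass, a gene needed an adjusted p (Benjamini-Hochberg) under 0.05 together with a log2 fold change beyond 1.5 or -1.5. Of the 7 members, 0 passed. Of all genes, 4.55% passed, 2.06% as lower and 2.49% as higher in SBS. The adjusted p-values from this test were 0.195 for lck, 0.209 for tcf3a, 0.342 for cd247, 0.417 for cd4-1, 0.423 for cd8a, 0.561 for ikzf1 and 0.704 for zap70. No member reached an unadjusted p under 0.05, which 28.9% of all genes did. The smallest unadjusted values were 0.0631 for lck and 0.0708 for tcf3a. Likewise 0 members were called by edgeR's likelihood ratio test, by DESeq2's Wald test or by RUVg with 1 factor. These called 15.6%, 15.6% and 13.6% of all genes. With only 7 members, 0 calls is near each of these shares and is no result about the members. With 2 libraries against 3, a two-sided exact rank-sum test of 1 gene cannot go below p = 0.2.

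The members' median log2 fold change was -0.76, against 0.00 over all genes tested, with 6 members below 0 and 1 above. Of the 7, 2 had SBS wholly below sham, as did 24.3% of all genes, and 0 had SBS wholly above, as did 22.6%. The count was decided by single libraries. Without sham replicate 1, which was the lowest sham library for lck, zap70, cd8a, cd247 and ikzf1, 6 members had SBS below sham, against 27.4% of all genes. Without SBS replicate 3 there were 4 such members, against 41% of all genes, and without SBS replicate 1 there were 3, against 35.4%.

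These directions are relative to TMM scaling. The TMM factors were 1.502 and 1.33 in SBS, against 0.773, 0.919 and 0.707 in sham. With library totals in place of TMM the median log2 fold change of all genes moved to 0.82. The members then lay at -0.16 for lck, -0.11 for cd247, -0.04 for cd8a, 0.07 for tcf3a, 0.46 for ikzf1, 0.53 for zap70 and 1.26 for cd4-1. Thus tcf3a, ikzf1 and zap70 changed sign, and cd4-1 had an adjusted p of 0.0401 in the same edgeR test without reaching the fold change limit. On this scale 0 members had SBS wholly below sham (7.64% of all genes) and 1, cd4-1, had it wholly above (54.2% of all genes). Relative to the shifted median, lck lay at -0.98, cd247 at -0.93, cd8a at -0.86, tcf3a at -0.75, ikzf1 at -0.36, zap70 at -0.29 and cd4-1 at 0.43, which is close to the TMM values.

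**Figure D2:**
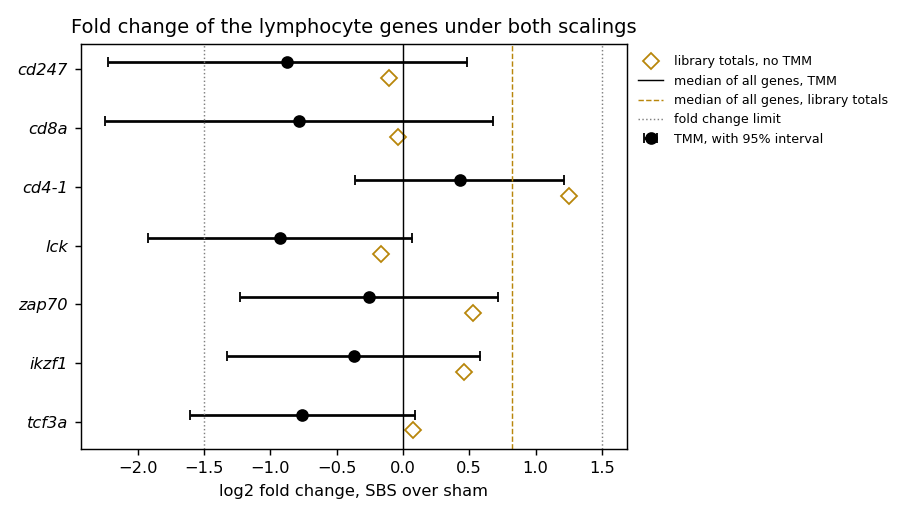
Log2 fold change of SBS over sham (horizontal axis) for each lymphocyte gene, with TMM scaling (black, bars are 95% intervals) and with library totals (open diamonds); vertical lines mark the median of all genes under each scaling, 0.00 and 0.82, and the fold change limits. Each TMM interval includes 0, and cd4-1 is the only gene to the right of the median under both scalings.

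Levels of the members were ranked against each other only per kilobase of listed transcript length. In SBS the order was zap70 at 6.58 ± 0.503 CPM per kilobase, ikzf1 at 5.11 ± 1.499, cd4-1 at 4.94 ± 1.12, cd8a at 4.48 ± 2.79, lck at 2.62 ± 0.965 and tcf3a at 2.11 ± 0.559 (SD, n = 2 each). In sham it was zap70 at 7.86 ± 3.13 CPM per kilobase, cd8a at 7.73 ± 3.501, ikzf1 at 6.60 ± 2.05, lck at 4.98 ± 1.66, cd4-1 at 3.67 ± 0.707 and tcf3a at 3.56 ± 0.460 (SD, n = 3 each). The ranges of neighbours in the order overlapped at every step in sham and at every step but the first in SBS, where both values of zap70 lay above those of ikzf1. The row cd247 was left out, because its listed length of 235 bases may not be that of the counted transcript.

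Ratios of members within a library do not depend on how libraries are scaled. Of the 21 pairs of members, 6 had a ratio whose SBS and sham values did not overlap, against 47.6% of all pairs of genes, which is not a higher share than among genes at large. Of these 6 pairs, 4 contain cd4-1, and lck is in 2. The ratio of lck to cd4-1 was 1.04 and 1.29 in SBS, against 2.50, 4.70 and 2.21 in sham. The SBS values were below all sham values, and sham replicate 2 stood highest. For cd8a over cd4-1, the ratio of the co-receptors, the values were 0.424 and 0.791 in SBS, against 0.866, 2.38 and 1.27 in sham. SBS replicate 3 and sham replicate 1 came near each other. The ratio of cd247 to cd4-1 was 0.186 and 0.352 in SBS, against 0.526, 0.986 and 0.615 in sham. The ratio of cd4-1 to tcf3a was 1.64 and 3.31 in SBS, against 0.810, 0.892 and 1.44 in sham, so that in all 4 of these pairs cd4-1 was higher relative to its partner in SBS than in sham.

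Within the receptor-proximal kinases, lck over zap70 was 0.513 and 0.785 in SBS, against 1.27, 1.03 and 0.936 in sham. Both SBS values lay below all sham values, and SBS replicate 1 was the lowest. The ratio of cd247 to zap70 was 0.0917 and 0.214 in SBS, against 0.268, 0.215 and 0.260 in sham, with SBS replicate 3 and sham replicate 2 nearly equal. The ratios lck over cd8a and lck over cd247 overlapped between the groups.

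The members differed among libraries of the same group as well. SBS replicate 1 was below SBS replicate 3 for 5 of the 7 (52.5% of all genes), and it was the lowest of all libraries for lck, cd8a and cd247 (33.6% of all genes). The log2 difference of SBS replicate 1 minus SBS replicate 3 was -1.35 for cd8a, -1.35 for cd247, -0.77 for lck, -0.46 for cd4-1 and -0.16 for zap70, and it was 0.60 for ikzf1 and 0.54 for tcf3a. Among the members, the receptor and kinase genes were thus lower in SBS replicate 1 and both transcription factor genes higher. This split did not extend to related genes. The row cd247l was higher in SBS replicate 1, at 0.850 against 0.698 CPM. So were 10 of 17 T cell receptor signalling genes and 25 of 39 lymphoid transcription factors, members included. The median size of the log2 difference between the SBS libraries was 0.60 for the members and 0.69 over all genes. Among sham libraries, replicate 2 was the highest for 4 of the 7 members (33% of all genes). The median SD of log2 CPM over the sham libraries was 0.46 for the members, against 0.31 over all genes. Leaving out each library in turn gave log2 fold changes from -1.36 to -0.59 for lck, -1.72 to -0.35 for cd247, -1.62 to -0.26 for cd8a, -1.05 to -0.51 for tcf3a, -0.71 to -0.10 for ikzf1 and 0.18 to 0.64 for cd4-1.

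Lymphocytes are 1 of several kinds of leukocyte in the tissue, so the members were also set against genes that leukocytes share. The measure was chosen after the values were seen, since ptprc, the gene planned for it, was not analysed here. Its base was the summed CPM of 11 pan-leukocyte genes, 3169.9 and 1119 in SBS, against 667, 973 and 765 in sham. This base was thus higher in both SBS libraries, and most of all in SBS replicate 1. One of its genes, srgn, had 1039 CPM in SBS replicate 1 and 81.4 CPM in SBS replicate 3, against 64.1 to 88.6 CPM in sham. The SBS libraries also differed in cxcr4b, at 139 and 12.9 CPM. Much of the sham sums came from arhgdig, at 194, 230 and 184 CPM, and ptpn6, at 150, 182 and 120 CPM. The base is thus uneven between genes. Without srgn in the base, the log2 difference of lck given below was -1.99 and that of zap70 was -1.23 in place of -1.42. As a percent of the base, lck was at 0.254 and 1.23 in SBS, against 2.28, 2.92 and 2.41 in sham. The SBS values of lck were below all sham values, with a log2 difference of -2.18 beside a sham SD of 0.19. The SBS libraries disagreed in its size, which was -1.04 without SBS replicate 1 and -3.31 without SBS replicate 3, and 17.8% of all genes had a lower difference than lck. For cd8a the percent was 0.103 and 0.752 in SBS, against 0.791, 1.48 and 1.39 in sham. For cd247 it was 0.0454 and 0.335 in SBS, against 0.480, 0.612 and 0.671 in sham. SBS was below sham in both, by little for cd8a in SBS replicate 3.

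The kinase zap70 lay at 0.495 and 1.56 percent of the base in SBS, against 1.79, 2.85 and 2.58 percent in sham. The transcription factor ikzf1 lay at 0.449 and 0.836 percent in SBS, against 1.47, 1.83 and 2.38 percent in sham, and tcf3a at 0.148 and 0.288 percent in SBS, against 1.13, 0.696 and 0.757 percent in sham. In all of these the groups were apart. Only cd4-1 overlapped, with 0.243 and 0.952 percent in SBS, against 0.913, 0.621 and 1.09 percent in sham. By this measure SBS was wholly below sham for 6 of the 7 members, as it was for 51.2% of all genes, and wholly above for 0, as it was for 5.88%. The median log2 difference was -2.02 over the members and -1.29 over 11881 genes without a count of 0, so a lower ratio was also the usual case among genes at large.

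**Figure D3:**
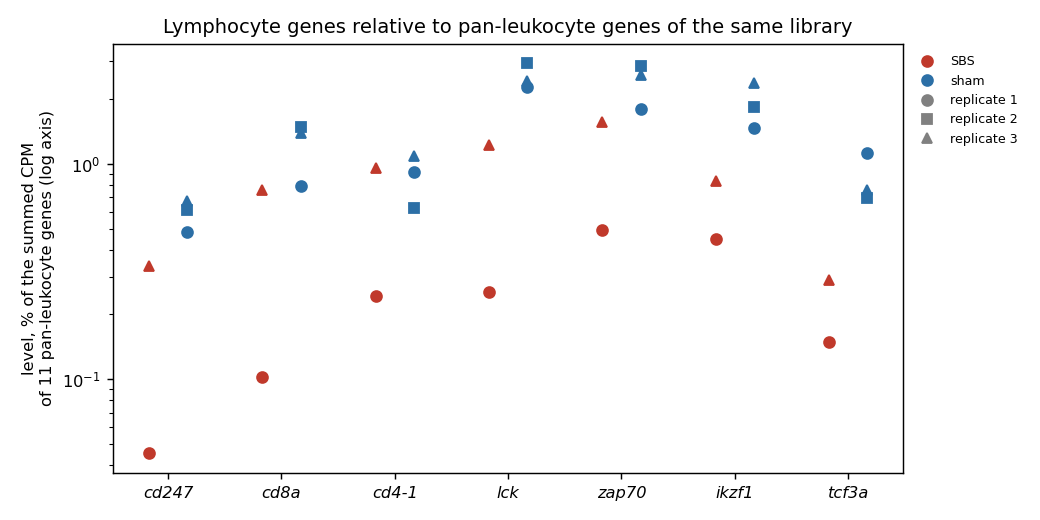
Level of each lymphocyte gene as a percent of the summed CPM of 11 pan-leukocyte genes of the same library (vertical axis, log scale), in SBS (red) and sham (blue), with symbols for the replicate number. SBS lies below sham for every member but cd4-1, as it does for 51.2% of all genes. SBS replicate 1, where the base was highest, is the lowest library for every member.

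Other lymphocyte genes were taken from 7 lists that cover the receptor complex, its signalling, B cells, immunoglobulins, lymphoid transcription factors, cytotoxic genes, and cytokine receptors with homing genes. Beside the members, 109 of 187 listed genes were tested. Of these, 2 passed as higher in SBS and 0 as lower, with 33 higher and 10 lower at an unadjusted p under 0.05. The fit placed 79 above and 30 below 0, and their median log2 fold change was 0.83, against 0.00 over all genes. The lists are not specific to lymphocytes. Of their genes, cd74a, cd74b, irf8 and spi1b are also in the macrophage list, at log2 fold changes of 0.15, -0.53, 3.19 and 3.23. In the pan-leukocyte list as well are coro1a, ptpn6, rac2 and cxcr4b, at 1.40, 0.09, 1.22 and 1.40. The part of such genes in the median was not tested. The genes that passed were irf8 and ccl19a.1. The gene irf8, a transcription factor of macrophages and B cells that is also in the macrophage list, had 181 and 126 CPM in SBS, against 9.93, 19.7 and 20.9 CPM in sham. The gene ccl19a.1, a ligand of the lymphocyte homing receptor Ccr7 as known in mammals, had 129 and 295 CPM in SBS, against 4.89, 10.7 and 8.70 CPM in sham. Their log2 fold changes were 3.19 ± 0.41 and 4.71 ± 0.53 (standard error), with adjusted p = 0.0233 and 0.0190 from the quasi-likelihood test. Neither passed without any 1 of the sham libraries, a setting in which 0 of all genes passed, while 2214 to 2660 of all genes had an unadjusted p under 0.05.

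In the T cell receptor signalling list 0 of 17 genes passed, with a median log2 fold change of 0.09, lck and zap70 included. The 15 genes of it that are no members lay on both sides of 0, with a median of 0.34. At an unadjusted p under 0.05, lcp2a, prkcq, grap2a and coro1a were higher in SBS, and itk and skap1 lower. These and the following genes were chosen after their values were seen. The kinase gene itk, which acts downstream of Lck and ZAP70, had 5.42 and 13.8 CPM in SBS, against 21.9, 30.0 and 24.4 CPM in sham. SBS was wholly below sham, as for lck, and the log2 fold change was -1.40 (adjusted p = 0.118, quasi-likelihood test), or -0.88 without SBS replicate 1 and -2.23 without SBS replicate 3. The adaptor gene lcp2a, also used by myeloid cells, had 61.3 and 32.2 CPM in SBS, against 13.0, 19.8 and 16.0 CPM in sham, a log2 fold change of 1.52 (adjusted p = 0.0719, quasi-likelihood test), or 0.98 without SBS replicate 1. The actin-binding coro1a, which is also in the pan-leukocyte list, had 335 and 160 CPM in SBS, against 60.5, 133 and 87.7 CPM in sham, and its log2 fold change was 1.40 (0.77 when SBS replicate 1 was left out). In the receptor complex list 0 of 4 passed, 3 of them members, and the median was -0.83.

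Receptors of lymphocyte cytokines and homing had a median log2 fold change of 1.40 over 25 genes, with 9 higher and 3 lower at an unadjusted p under 0.05. This median was set by SBS replicate 1, which lay at a median of 2.199 above the sham mean in log2 CPM, while SBS replicate 3 lay at -0.06. The 3 lower genes were il7r, il2rb and ccr7. The interleukin 7 receptor gene il7r, known in mammals for the survival of naive and memory T cells, had 14.4 and 11.8 CPM in SBS, against 31.6, 36.6 and 31.1 CPM in sham. Its log2 fold change of -1.34 had an adjusted p of 0.0467 in the quasi-likelihood test and did not reach the fold change limit. That adjusted p was 0.0543 with DESeq2 size factors, 0.0501 with upper-quartile factors, 0.284 with library totals and 0.148 to 0.167 without a sham library, and over all alternatives it ranged from 0.000419 to 0.284. The receptor chain gene il2rb, used by T cells and natural killer cells, had 5.03 and 1.78 CPM in SBS, against 18.4, 14.2 and 22.1 CPM in sham (log2 fold change -2.43, adjusted p = 0.0635, quasi-likelihood test). Like that of tcf3a, the il2rb row is classed as a retained intron transcript in the deposited annotation. The homing receptor gene ccr7 had 0.719 and 2.41 CPM in SBS, against 10.8, 6.69 and 4.89 CPM in sham (log2 fold change -2.24, adjusted p = 0.103, quasi-likelihood test). Leaving out each library gave -3.35 to -1.86 for il2rb and -3.37 to -1.63 for ccr7, with both ends of each range set by the SBS libraries.

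Of 18 genes in the list of B cell receptor and B cell signalling 0 passed, with a median log2 fold change of 0.91. By mean CPM, not scaled for length, the highest of them were cd74a, cd74b and cd81a, of which cd74a and cd74b are also in the macrophage list. The median is no measure of B cells, since cd79a and cd79b were not analysed here. The B cell transcription factor gene pax5 had only 10 and 3 counts in SBS, against 6, 7 and 2 in sham. Of 3 immunoglobulin and antibody transport genes, pigr, pigrl2.3 and pigrl3.5, 0 passed. Among 39 lymphoid transcription factors, ikzf1 and tcf3a included, irf8 alone passed and the median was 0.69, with SBS replicate 1 at 0.65 and SBS replicate 3 at -0.11 relative to the sham mean in log2 CPM. The fit placed 25 of them above 0 and 14 below. At an unadjusted p under 0.05, 7 were higher and 3 lower in SBS. Among the lower ones were bcl11ba, at a log2 fold change of -1.91, and tcf7, at -1.12. By mean CPM, not scaled for length, the highest of the list were xbp1, id3 and ets2. Of 12 cytotoxic genes 0 passed, with a median of 1.15, and SBS replicate 1 and SBS replicate 3 lay at 1.56 and 0.35. Over all genes the same medians were -0.04 and 0.00.

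**Figure D4:**
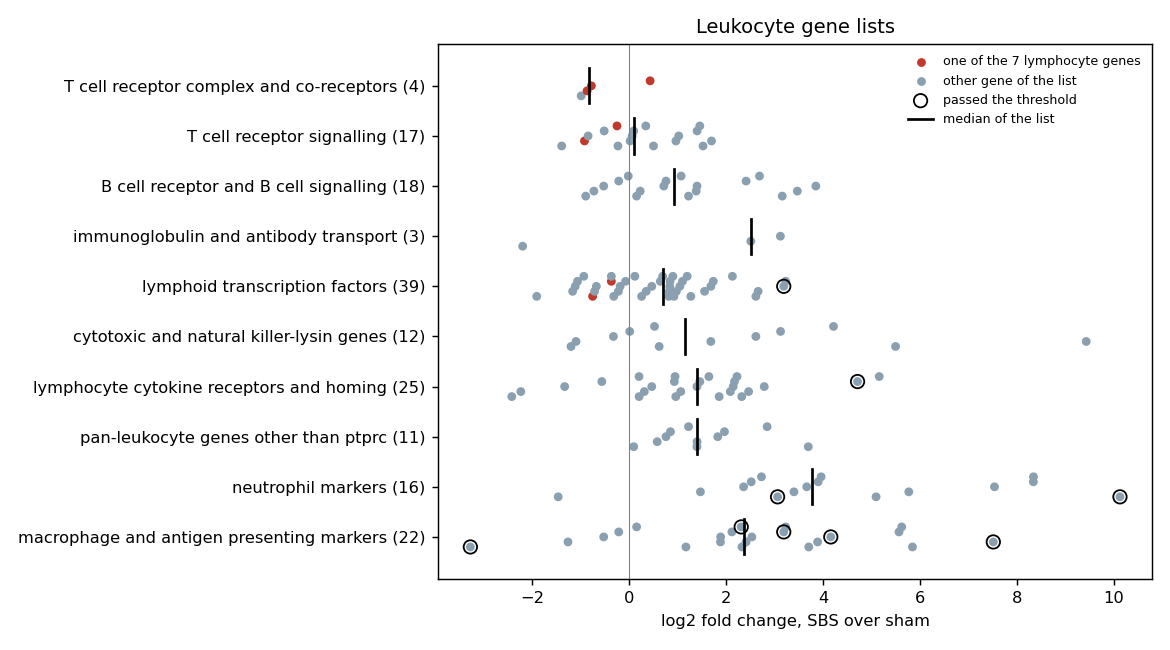
Log2 fold change of SBS over sham (horizontal axis) of each tested gene in 10 leukocyte gene lists, with the number of genes in parentheses; red points are lymphocyte genes of the set, circles mark genes past the threshold, and black bars are list medians. The T cell receptor complex list, with 3 members among its 4 genes, has a median of -0.83. The neutrophil and macrophage lists have medians of 3.78 and 2.37. Relative to the sham mean in log2 CPM, the latter lists lay at medians of 4.80 and 3.09 in SBS replicate 1. In SBS replicate 3 they lay at 0.88 and 1.03.

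The genes whose pattern over the 5 libraries was closest to the members' mean profile were rpp14, mrps6, plgrkt, cnbpa and rab3gap1. The measure was the root mean square difference of centred log2 CPM, over 10770 genes with a mean of at least 1 CPM. It was 0.0458 for rpp14, 0.0555 for mrps6, 0.0585 for plgrkt, 0.0744 for cnbpa and 0.0785 for rab3gap1. The gene cnbpa, for example, had 63.8 and 77.1 CPM in SBS, against 75.8, 114 and 111 CPM in sham, with the same low value in SBS replicate 1 and high value in sham replicate 2 as several members.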

How the data were processed

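RNA-seq was done on proximal intestine of 3 sham and 3 SBS zebrafish, 2 weeks after surgery. The authors deposited raw counts per gene, made with HTSeq-count from STAR alignments after quality checks (FastQC) and trimming (Trimmomatic). The build is danRer7 in the study's methods and GRCz10 (danRer10) in the submitters' processing notes, so only chromosomes of the deposited annotation are given. Tool versions, strand setting and low-count filter are not given in the sources used here; the smallest row total is 12 counts. The feature length in bases that the authors deposited served for values per kilobase, and their RPKM values were not used. The authors also deposited fold changes, p-values, FDR and likelihood ratios of their own comparison, and none was used. Of 6 count columns, 0 were without a sample.

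SBS replicate 1 and replicate 2 have identical columns and were counted once, so a distinct SBS replicate 2 was not analysed here. The paper lists different read totals for these replicates, so which fish the shared column holds is not known. Every count in these columns is even. The reason was not tested, and the counts and read totals of SBS replicate 1 are given as deposited. Of 12418 gene rows, 20 repeats were left out, 17 of the other 12398 fell under 10 counts over the 5 libraries, and 12381 were tested. Spike-ins, 70 rows with 1.72% and 2.43% of counts in SBS and 0.663% to 0.809% in sham, stayed out. Counts were tested with edgeR 4.0.16 (limma 3.58.1, R 4.3.3) by TMM and the quasi-likelihood test, and p-values were adjusted by Benjamini-Hochberg over all genes; 95% intervals come from the same fit. The fold change limit is that of the study's methods. Reads carry no molecular identifiers.

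The members and gene lists were chosen with earlier results of these data known. Genes named are all members found, a part of the called genes and of the 3 genes of highest mean CPM in each list, and the 5 genes most like the members' profile. All others, cd247l and tcf3b included, were chosen after their values were seen. The planned balance against ptprc and B cell members could not be computed, and the ratio to pan-leukocyte genes was used in its place. Alternatives were DESeq2 size factors, library totals, upper-quartile factors, filterByExpr, no minimum beyond 1 count, the likelihood ratio test, DESeq2 1.42.0's Wald test, RUVg with 1 factor (the 5000 genes of smallest p were no controls), adjusted p alone, a replicate block, all 6 columns, halved counts of SBS replicate 1, and each library left out. The scripts were tested on simulated data with 200 genes changed by a log2 fold of 4. The quasi-likelihood test found 89% of these, and the replicate block 95%. The likelihood ratio test, the Wald test and RUVg found 98%, 99% and 98%. Wrong calls among unchanged genes numbered 8 in the quasi-likelihood test and 53 with the replicate block. They numbered 57 in the likelihood ratio test, 77 in the Wald test and 71 with RUVg. Members lie at -0.93 to 0.43, and detection at such sizes was not tested.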

Additional observations from a re-analysis of the deposited data

How the results depend on the processing

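No member was called under any of 17 settings, of which 4 (the replicate block and each sham library left out) called 0 of all genes and so say nothing about the members. The lowest adjusted p of a member was 0.0401, for cd4-1 with library totals. With library totals zap70 moved to 0.53, ikzf1 to 0.46 and tcf3a to 0.074, 0 members had SBS wholly below sham and 1 had it above. Leaving out each library gave 2 to 6 members below, 0 to 1 above, and -0.52 to 0.11 for zap70; the ratio to pan-leukocyte genes, chosen after seeing the data, gave 6 below. Of the other lymphocyte genes, 33 were called higher with library totals, 21 by the likelihood ratio test, 21 by DESeq2's Wald test, 10 by RUVg, 19 with all 6 columns, 0 with the replicate block, and 0 to 37 with a library left out. These settings called more of all genes too: 16.9%, 9.81%, 9.69%, 7.76% and 9.54% as higher in the first 5 of these, and 10.5% without SBS replicate 3, which gave the 37, against 2.49% in the quasi-likelihood test with TMM. Called lower were 3, 3 and 3 genes by the likelihood ratio test, the Wald test and RUVg, 4 with all 6 columns, 1 by adjusted p alone, and 0 to 5 with a library left out. Where SBS kept 1 library, it was assumed to vary like the sham libraries. The labels do not say that samples with the same number are paired. The paper calls its samples matched but names no pairs. Deviations of same-numbered samples from their group means correlated at -0.094 and -0.106. With 2 SBS libraries their deviations are equal and opposite, so these values are not independent and cannot decide on pairing. With the replicate number as a block 0 genes of all were called (1923 had an unadjusted p under 0.05), and zap70 was 0.11. The causes were not tested. With 2 SBS libraries, members at 44 to 1011 counts allow wide intervals only.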

Other observations

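The SBS libraries differed from each other in homing genes and in several genes of the cytotoxic list. Of 12 cytotoxic genes 7 were higher in SBS replicate 1 than in SBS replicate 3. Over all genes 52.5% were lower there, so the count alone does not set this list apart. The natural killer-lysin gene nkl.1, of a family that zebrafish natural killer-like cells express, had 4198 and 19 counts in SBS replicate 1 and replicate 3, against 2, 8 and 0 counts in sham. In CPM these were 137 and 0.369 in SBS, against 0.0583, 0.225 and 0 in sham, so nearly all of its reads came from SBS replicate 1. In the same order of libraries, nkl.4 had 592 and 8 counts in SBS, against 1, 13 and 8 in sham. For eomesa there were 66 and 2 counts in SBS, against 11, 4 and 3 in sham, and for tbx21 72 and 13, against 16, 9 and 16. The gene tnfsf10 went the other way, with 28.3 and 100 CPM in SBS. The perforin gene prf1.1, of the pore-forming proteins of cytotoxic cells, had 3.202 and 3.78 CPM in SBS, against 8.80, 7.31 and 6.39 CPM in sham. Its SBS libraries were close to each other and below all sham libraries, and its log2 fold change of -1.10 did not pass (adjusted p = 0.101, quasi-likelihood test). Of the 25 cytokine receptor and homing genes, 21 were higher in SBS replicate 1 than in SBS replicate 3, as were all 11 pan-leukocyte genes and 14 of 16 neutrophil markers. By contrast the neutrophil peroxidase gene mpx had 286 and 11098 CPM in SBS, against 3.06, 8.21 and 3.96 CPM in sham, and was higher in SBS replicate 3. These genes were chosen after their values were seen.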
